A study of Xenopus laevis x Xenopus muelleri with 6 samples.

Results

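The probe sets described here report the subunits of the proteasome and of the COP9 signalosome in the testis of hybrid frogs. They were chosen by name: a probe set belongs if the platform table gives it exactly 1 gene symbol and that symbol, without its .L or .S ending, begins with psma to psmg, with pomp or with cops and a digit, other than psmc3ip. The rule found 49 of the 11485 probe sets in the deposited table, for 43 gene copies of 37 genes. Every frog was a cross of a Xenopus laevis female with a male of Xenopus muelleri, and their testes were taken at sexual maturity after rearing to adulthood under a shared day and night cycle. Affymetrix arrays held 3 samples of testis from sex-reversed animals and 3 samples of normal testis, and the comparison asks whether the 2 kinds of testis differ. All 6 samples are whole hybrid testis, so no group shows either parent species alone. How sex was reversed, the genetic sex of those animals and whether each sample came from its own animal are not stated in the material used here. The titles call the arrays of a group biological replicates, and the p-values rest on the spread among these arrays.

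The proteasome is the machine that degrades proteins tagged with ubiquitin. Its barrel-shaped core is built from outer alpha rings, which form the gate, and inner beta rings, which carry the protease sites. A regulatory cap sits on the barrel: its base holds ATPases that unfold the substrate, and its lid removes the ubiquitin chain. The COP9 signalosome is a relative of the lid. It takes the ubiquitin-like protein NEDD8 off cullins, the scaffolds of a large family of ubiquitin ligases, and so sits upstream of the proteasome. In mammals, developing sperm use special proteasome forms, among them one with the activator PA200, the product of psme4. X. laevis has many genes as an L and an S copy, each from one of its ancestral genomes, and the endings .L and .S mark them.

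The deposited values are log2 intensities made with RMA, a method that corrects background, sets the arrays to one distribution and combines the probes into 1 value per probe set. Medians per array lay between 5.25 and 5.31 and the lowest values between 1.93 and 2.09. A level also depends on how well its probes bind, so the percentiles of level given below rank signals and not amounts of RNA. Signal over background was not measured. Sequence differences between the parent species can lower the binding of a probe, and their part in these values was not tested. The tissue label was checked against marker genes. The germ line genes ddx4.L, at 12.4 to 12.6 in sex-reversed and 12.4 to 12.8 in normal testis, and dazl.L, at 11.9 on the sex-reversed arrays and 11.7 to 12.1 on the normal ones, were high. Of 17 germ cell probe sets, 5 lay below the 25th percentile of all levels, among them those of the sperm genes odf3.L, odf3.S, ropn1l.L and meig1.S. Other sperm genes were high: tekt4.S and spag6.L had mean levels of 9.68 and 8.78, above the 90th percentile of all levels. Sex-reversed replicate 3 stood apart for cyp17a1.L, an enzyme of androgen synthesis. One probe set read 5.17 there, against 10.49 and 11.14 on the other sex-reversed arrays and 9.96 to 11.34 on the normal arrays. The second read 5.23, against 8.58 and 8.93 and against 8.14 to 8.26 in the same order. Of 8 probe sets for 5 of 14 listed Sertoli and Leydig cell genes, 3 lay below the 25th percentile of all levels. The mean was lower in sex-reversed testis for 5 and higher for 3 (48.7% of all probe sets were lower). On sex-reversed replicate 3, sox9.S had its lowest value (5.91) and dhh.L its highest (4.15). Markers of smooth muscle had a higher mean in sex-reversed testis for 11 of 13 probe sets, from 8 of 14 listed genes (median difference 0.50). The mean was lower for the other 2 (48.7% of all probe sets were lower). The summed log2 level of these markers was 95.2 to 98.7 on sex-reversed and 89.6 to 92.6 on normal arrays, and their part in the results was not tested.

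The table covers the complexes in part. By gene, it holds 6 of 8 listed alpha subunits of the core, 4 of 7 constitutive beta subunits, 1 of 4 beta subunits of the tissue-specific proteasomes, 3 of 6 ATPases of the base and 2 of 3 other base subunits. It further holds 5 of 8 lid subunits, 4 of 6 activators, inhibitors and partners, 6 of 8 assembly chaperones and 6 of 9 COP9 subunits counted by the rule. The other 22 listed genes, such as psma4, psmb7, psmb9, psmd4, psmd11, psme1 and cops4, are not among the members, and of these psmc6 is given below from a probe set that its L and S copies share. For 6 genes an L and an S copy were both measured, and 5 gene copies had more than 1 probe set. Mean levels of the 49 probe sets ran from 2.42 to 11.27 with a median of 7.36, against a median of 5.25 over all probe sets. Of the 49, 39 lay above that overall median, 13 lay above the 90th percentile of all levels (8.52) and 4 lay below the 25th percentile (3.72).

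At an adjusted p of 0.05 in limma, taken over all 11485 probe sets with n = 3 per group, 0 of the 49 proteasome and COP9 probe sets were called different, as were 0% of all probe sets. An unadjusted p under 0.05 was reached by 5 of the 49 (10.2%), against a background of 4.42% of all probe sets. Of these, 4 were lower in sex-reversed testis (background 2.16%): both probe sets of the ATPase psmc1.L, the immunoproteasome subunit psmb8.L and the COP9 subunit cops3.L. The other was higher (background 2.26%), the assembly chaperone pomp.S. Group means at least 2-fold apart were found for 3 of the 49, both psmc1.L probe sets and pomp.S, where 2.56% of all probe sets were as far apart. The arrays of the groups did not overlap for 4 of the 49 (8.16%), close to the 9.63% of all probe sets: 3 lower, both psmc1.L probe sets and cops3.L (background 4.26%), and 1 higher, the ATPase psmc3.S (background 5.37%). Both psmc1.L probe sets report 1 gene copy and are not independent of each other, yet each is counted in these shares.

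**Figure D1:**
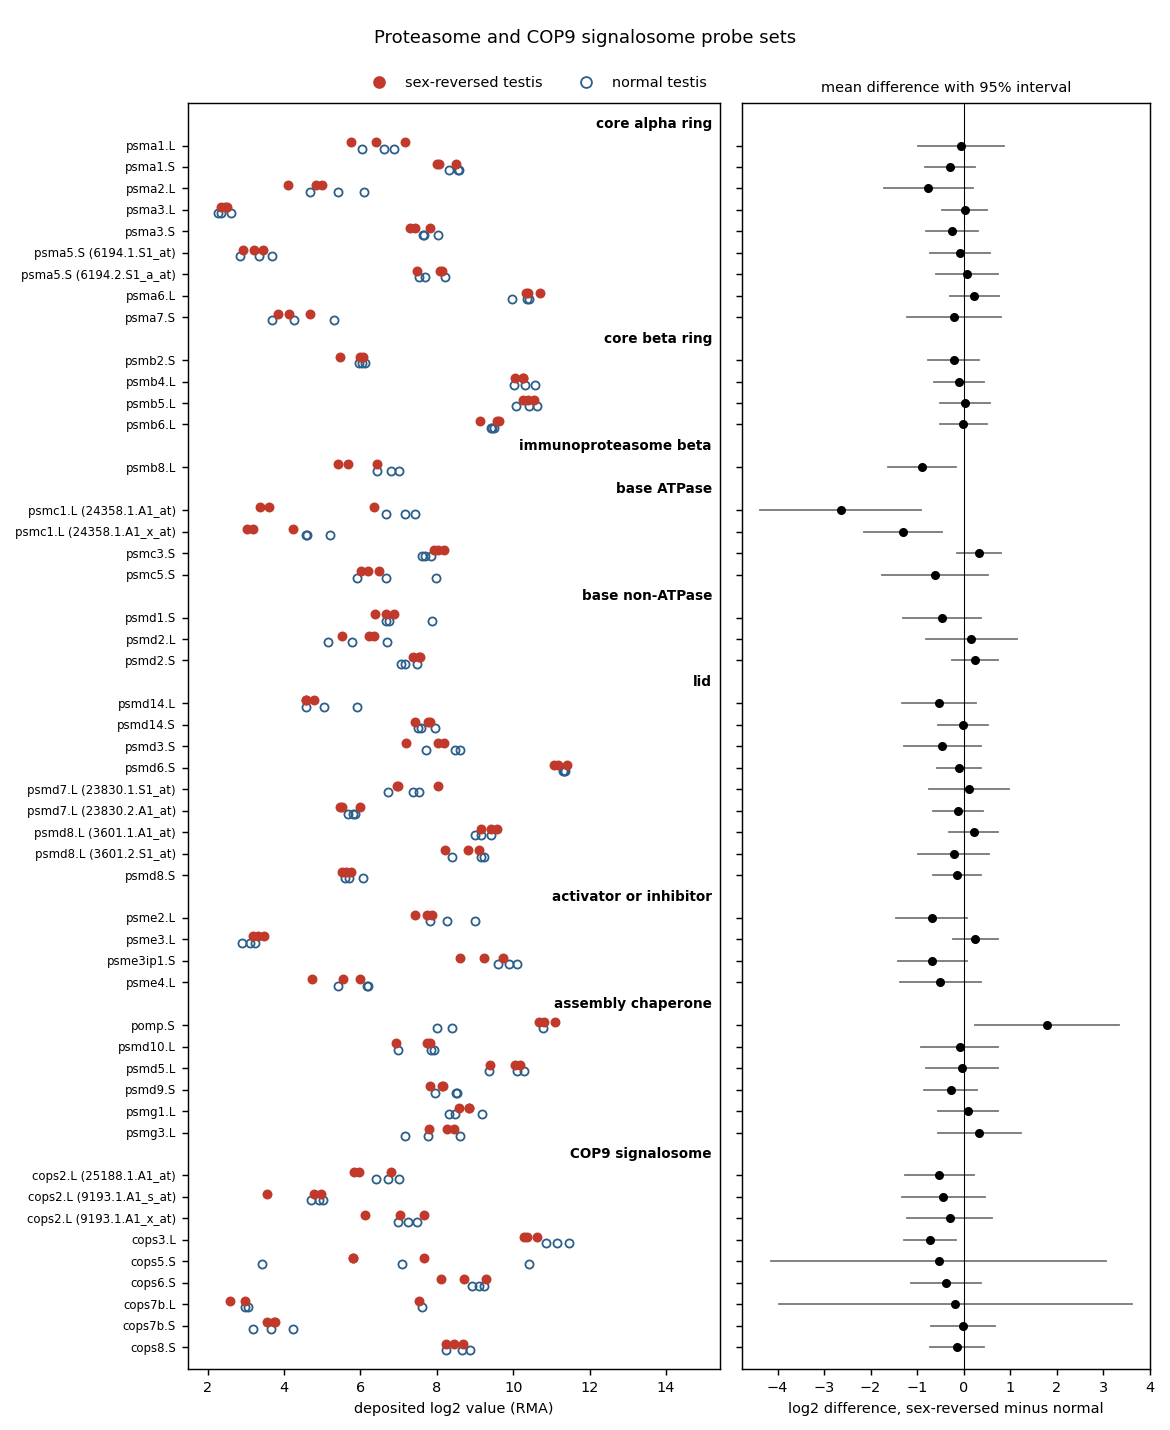
Left, the deposited log2 value of each proteasome and COP9 probe set on the 3 sex-reversed arrays (filled red) and the 3 normal arrays (open blue), by role. Right, the log2 difference of sex-reversed minus normal with its 95% interval from limma. Only the intervals of psmc1.L (both probe sets), psmb8.L, cops3.L and pomp.S leave out 0, and none of these passed after adjustment.

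The means of most members were somewhat lower in sex-reversed testis. Of the 49, 36 had a lower mean there (73.5%, background 48.7%), with a median log2 difference of -0.15, against a median of 0.01 over all probe sets. Counted by gene, with the mean over all its probe sets, 29 of 37 were lower (median -0.14). Counted by gene copy, with its probe set of the highest mean, 30 of 43 were lower (median -0.14). These shares were not counted over all genes. The tilt to lower means followed single arrays. Without sex-reversed replicate 1 the median was -0.03 with 27 of 49 lower, and without normal replicate 3 it was -0.10 with 28 lower, while it lay between -0.18 and -0.24 without any of the other 4 arrays. After subtracting each probe set's own mean over the 6 arrays, the median of the members was -0.31, 0.14 and -0.003 on sex-reversed replicates 1, 2 and 3, against 0.08, -0.02 and 0.27 on normal replicates 1, 2 and 3. The groups overlapped: sex-reversed replicate 1 was the low array and normal replicate 3 the high one. Sex-reversed replicate 1 gave the lowest of the 6 values for 22 of 49 members (44.9%) and for 17.6% of all probe sets, and normal replicate 3 gave the highest for 19 members (38.8%) and for 16.5% of all probe sets. In whole testis, fewer cells of a type and less RNA per cell cannot be told apart.

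**Figure D2:**
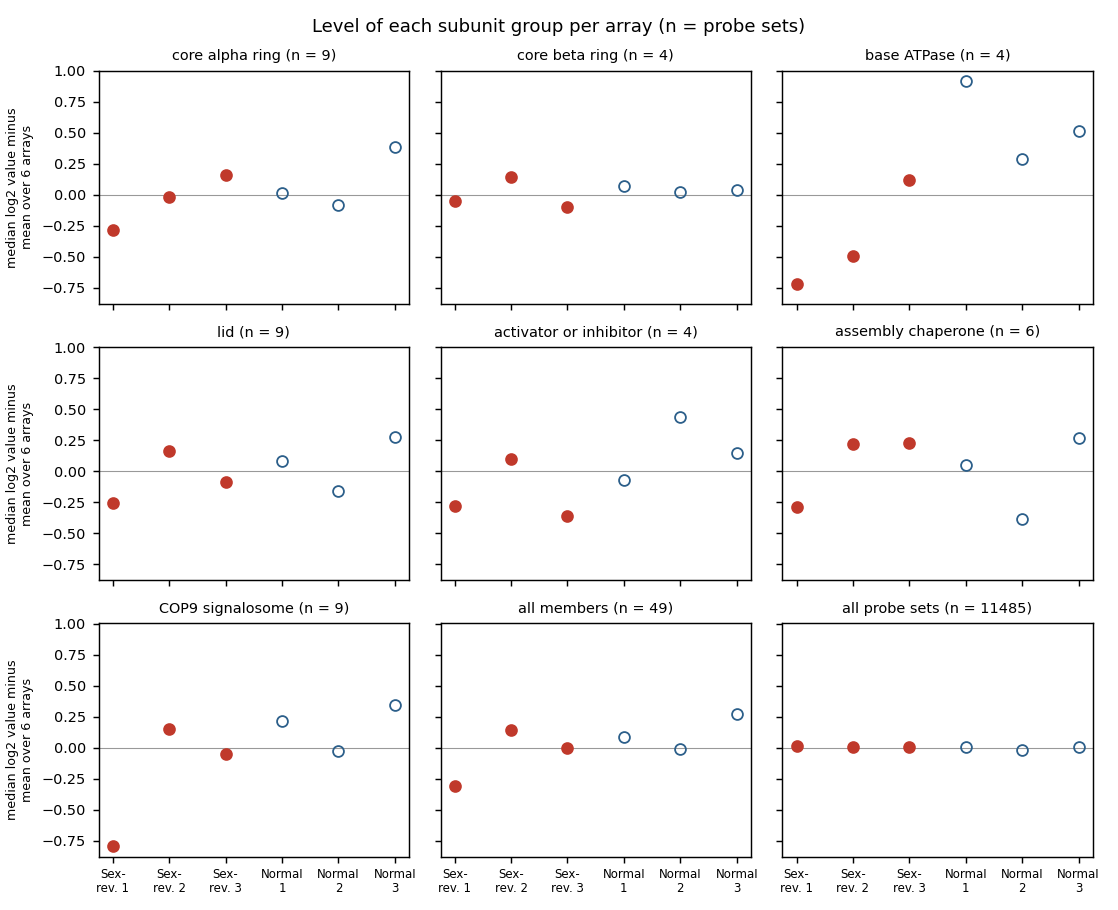
Median over the probe sets of a role of the log2 value minus its mean over the 6 arrays, for the 3 sex-reversed arrays (filled red) and the 3 normal arrays (open blue). The immunoproteasome subunit and the base subunits other than ATPases are not drawn, and panels for all members and all probe sets are included. The COP9 probe sets reached their lowest median, -0.79, on sex-reversed replicate 1, and over all 11485 probe sets the medians stayed near 0 on every array.

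Among the subunits of the core, the beta subunits had differences between -0.22 and 0.03 over 4 probe sets and 95% intervals that stayed within 2-fold for all 4. The catalytic subunit psmb5.L, which cuts after hydrophobic residues, read 10.26, 10.55 and 10.37 on sex-reversed arrays, against 10.62, 10.06 and 10.40 on normal arrays, and the values of the groups were interleaved. For psmb6.L, the subunit that cuts after acidic residues, the values were 9.14, 9.62 and 9.57 in sex-reversed testis and 9.41, 9.44 and 9.50 in normal testis. The structural subunit psmb4.L averaged 10.19 ± 0.13 in sex-reversed and 10.29 ± 0.28 in normal testis (SD, n = 3 each). The beta subunit psmb2.S lay at 5.45 to 6.07 in sex-reversed and 5.97 to 6.13 in normal testis, the largest difference of the 4, at -0.22 (95% interval -0.77 to 0.33), which was -0.03 without sex-reversed replicate 3.

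Among 9 probe sets of the alpha ring, 6 had a lower and 3 a higher mean in sex-reversed testis (48.7% of all probe sets were lower). The median difference of the 9 was -0.08, and 7 had intervals within 2-fold. The ring subunit psma6.L lay at 10.34, 10.71 and 10.39 in sex-reversed testis and at 9.98, 10.41 and 10.36 in normal testis. The widest alpha subunit was psma2.L, with 4.09, 4.99 and 4.83 on sex-reversed arrays and 5.41, 4.68 and 6.10 on normal arrays, a difference of -0.76 (95% interval -1.70 to 0.19). Its groups overlapped, and leaving out normal replicate 3 gave -0.41, while leaving out normal replicate 2 gave -1.12. The L copy of psma3 lay near the floor of the arrays, at 2.34 to 2.50 in sex-reversed and 2.26 to 2.62 in normal testis, and its S copy lay at 7.30 to 7.83 in sex-reversed and 7.64 to 8.04 in normal testis. Means of psma1.S were 8.19 ± 0.27 in sex-reversed and 8.48 ± 0.15 in normal testis, those of psma1.L 6.45 ± 0.71 and 6.51 ± 0.43 in the same order, and those of psma7.S 4.22 ± 0.42 and 4.42 ± 0.83 (SD, n = 3 each).

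The immunoproteasome is a variant of the core found mainly in immune cells and in tissues exposed to interferon, and psmb8 encodes the protease subunit that takes the place of psmb5 in it. The values of psmb8.L were 5.68, 5.42 and 6.43 in sex-reversed testis, against 6.79, 7.02 and 6.43 in normal testis. Sex-reversed replicate 3 and normal replicate 3 met at 6.43, and the other sex-reversed arrays lay below all normal ones. The difference was -0.90 (95% interval -1.64 to -0.17; adjusted p = 0.997 in limma), and it kept its sign without any 1 array (-1.19 to -0.69). The other immune member is psme2.L, a subunit of the ring activator PA28, which is induced by interferon in mammals. It read 7.75, 7.86 and 7.43 in sex-reversed testis, against 7.83, 9.01 and 8.26 in normal testis, a difference of -0.68 (95% interval -1.45 to 0.08; -0.36 without normal replicate 2). Most markers of immune cells were low: of 11 probe sets for 9 of 25 listed genes, 6 lay below the 25th percentile of levels. Of the 11, 9 had a higher mean in sex-reversed testis and 2 a lower one (48.7% of all probe sets were lower). The summed log2 level of the 11 was 52.6 to 56.1 on sex-reversed and 49.8 to 55.5 on normal arrays. The leukocyte marker ptprc.L lay at 2.61 to 3.03 in sex-reversed and 2.76 to 3.61 in normal testis and so below the 25th percentile of levels. The 3 immune probe sets above the median of all levels were of antigen presentation genes. Those of b2m.S had mean levels of 8.84 and 7.10, with differences of -0.67 and 0.13 in the same order. For cd74.L, of the same pathway, the mean level was 9.26 and the difference 0.07. The part of immune cells in the psmb8.L and psme2.L values was not tested.

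The base ATPase psmc1.L gave the largest difference of all members. The product of psmc1 is the ATPase Rpt2, whose tail docks into the alpha ring and helps to open the gate. Its _at probe set read 3.38, 3.61 and 6.37 on sex-reversed replicates 1, 2 and 3, against 7.16, 6.68 and 7.44 on the normal arrays. Every sex-reversed value lay below every normal one, but sex-reversed replicate 3 lay close to the normal arrays. The means were 4.45 ± 1.66 in sex-reversed and 7.09 ± 0.39 in normal testis (SD, n = 3 each), a log2 difference of -2.64 (95% interval -4.38 to -0.91). The values of sex-reversed replicates 1 and 2 lay below 3.72, the 25th percentile of levels, so the size of the difference is uncertain. It did not pass (adjusted p = 0.997 in limma; 0.0322 to 0.9999 over 17 alternatives). The low end of that range came without sex-reversed replicate 3, where the difference was -3.60 and psmc1.L was 1 of the 6 probe sets called among all 11485 (0.0522%). That array is also the one with the low cyp17a1.L values. Over all probe sets, its root mean square difference was 0.62, 0.666 and 0.74 from normal replicates 3, 1 and 2. From sex-reversed replicates 2 and 1 it was 0.682 and 0.714. What sets sex-reversed replicate 3 apart from its group was not tested.

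A second psmc1.L probe set, marked _x_at as open to cross-hybridisation and designed from the same sequence record, moved with the first at a smaller scale. It read 3.03, 3.20 and 4.23 in sex-reversed testis, against 4.58, 4.59 and 5.20 in normal testis, a difference of -1.31 (95% interval -2.15 to -0.46). Again the groups did not overlap and sex-reversed replicate 3 was the highest of its group. The probe sets share their source record, so they are not independent measurements of the gene. The other ATPases went different ways. The gate-opening ATPase psmc3.S (Rpt5) read 8.19, 7.92 and 8.03 in sex-reversed testis, against 7.69, 7.62 and 7.85 in normal testis, higher by 0.32 on the log2 scale (95% interval -0.15 to 0.80). For psmc5.S (Rpt6) the values were 6.21, 6.49 and 6.02 in sex-reversed testis and 7.98, 6.68 and 5.91 in normal testis, and the difference of -0.61 was -0.05 without normal replicate 1. A probe set shared by psmc5.L and psmc5.S, not counted among the members, read 9.96, 10.15 and 9.90 in sex-reversed testis, against 9.81, 9.83 and 9.12 in normal testis. Its difference was 0.41 (95% interval -0.19 to 1.02), opposite in sign to that of psmc5.S. Its groups did not overlap, and 5.37% of all probe sets were apart in this direction. One shared by psmc6.L and psmc6.S read 9.23, 9.57 and 9.71 in sex-reversed testis, against 9.63, 9.79 and 9.99 in normal testis. For it the difference was -0.30 (95% interval -0.83 to 0.23), and the groups overlapped.

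The other base subunits, which form the scaffold for ubiquitin receptors and shuttle proteins, were represented by psmd1 and psmd2. For psmd1.S the values were 6.37, 6.87 and 6.66 in sex-reversed testis, against 6.66, 7.88 and 6.76 in normal testis. Its difference of -0.47 (95% interval -1.30 to 0.37) rested on normal replicate 2, without which it was -0.08. Means of psmd2.S were 7.49 ± 0.10 in sex-reversed and 7.24 ± 0.23 in normal testis, and those of psmd2.L were 6.04 ± 0.45 and 5.88 ± 0.78 in the same order (SD, n = 3 each).

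Of 9 lid probe sets, 7 had a lower and 2 a higher mean in sex-reversed testis (48.7% of all probe sets were lower). The median difference of the 9 was -0.12. Without sex-reversed replicate 1, 5 of the 9 were lower and the median was -0.02. The lid enzyme psmd14, or Rpn11, cuts the ubiquitin chain off the substrate. Its S copy read 7.42, 7.82 and 7.78 in sex-reversed testis and 7.57, 7.52 and 7.95 in normal testis, a difference of -0.01 (95% interval -0.55 to 0.53). Its L copy read 4.59, 4.78 and 4.58 in sex-reversed testis and 5.05, 4.57 and 5.90 in normal testis, a difference of -0.52 (95% interval -1.33 to 0.28), which was -0.16 without normal replicate 3. The scaffold subunit psmd6.S was among the steadiest members, with 11.07, 11.42 and 11.18 on sex-reversed arrays and 11.32, 11.36 and 11.29 on normal arrays. The scaffold subunit psmd3.S averaged 7.81 ± 0.53 in sex-reversed and 8.27 ± 0.48 in normal testis (SD, n = 3 each), and its groups overlapped.

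The alternative caps and their partners were lower in sex-reversed testis for 3 of 4 probe sets (48.7% of all probe sets were lower), with none past the threshold. The activator gene psme4.L, whose product PA200 serves histone removal in mouse spermatids, read 4.74, 5.98 and 5.55 in sex-reversed testis, against 5.42, 6.18 and 6.19 in normal testis. The difference of -0.50 (95% interval -1.38 to 0.37) was -0.16 without sex-reversed replicate 1. The nuclear activator psme3.L lay at 3.20 to 3.48 in sex-reversed and 2.91 to 3.25 in normal testis and so below the 25th percentile of levels. Its partner psme3ip1.S, which entered by the spelling of its symbol, read 9.22, 9.72 and 8.62 in sex-reversed testis, against 10.10, 9.89 and 9.59 in normal testis. The groups overlapped slightly, and the difference of -0.67 (95% interval -1.41 to 0.07) was -0.39 without sex-reversed replicate 3.

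Assembly chaperones held the member with the largest positive difference, pomp.S, which helps the half-built core to close and its proteases to mature. Its values were 10.80, 10.68 and 11.08 in sex-reversed testis, against 10.79, 8.01 and 8.39 in normal testis. Normal replicate 1 lay among the sex-reversed arrays, and the other normal arrays lay more than 2 log2 units lower. The means were 10.85 ± 0.21 in sex-reversed and 9.06 ± 1.51 in normal testis (SD, n = 3 each), a log2 difference of 1.79 (95% interval 0.24 to 3.35; adjusted p = 0.997 in limma, 0.105 to 0.9999 over 17 alternatives). The difference was 1.27 without normal replicate 2, 1.46 without normal replicate 3 and 2.65 without normal replicate 1. No other chaperone spread as far. The alpha ring chaperone psmg1.L averaged 8.75 ± 0.15 in sex-reversed and 8.66 ± 0.46 in normal testis, and psmg3.L 8.18 ± 0.34 and 7.85 ± 0.71 in the same order (SD, n = 3 each). The chaperones of the base were psmd5.L, at 9.39 to 10.18 in sex-reversed and 9.36 to 10.28 in normal testis, psmd9.S, at 7.82 to 8.16 in sex-reversed and 7.95 to 8.52 in normal testis, and psmd10.L, at 6.93 to 7.83 in sex-reversed and 6.98 to 7.92 in normal testis.

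All 9 probe sets of the COP9 signalosome had a lower mean in sex-reversed testis, as had 73.5% of all members and 48.7% of all probe sets. The median difference of the 9 was -0.38, and none passed. Of the 9, 3 report cops2.L, so they stand for 6 genes. The count depended on sex-reversed replicate 1, the lowest of the 6 arrays for 7 of the 9 probe sets (44.9% of all members, 17.6% of all probe sets). Without that array 6 of 9 were lower and the median was -0.04. Among the COP9 probe sets only cops3.L, a scaffold subunit, had groups that did not overlap, with 10.29, 10.37 and 10.62 in sex-reversed testis, against 11.47, 11.13 and 10.87 in normal testis. The difference was -0.73 (95% interval -1.28 to -0.18; adjusted p = 0.997 in limma), with a range of -0.87 to -0.57 when any 1 array was left out. The scaffold subunit cops8.S averaged 8.45 ± 0.22 in sex-reversed and 8.59 ± 0.32 in normal testis (SD, n = 3 each).

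The subunit that carries the protease site, cops5, and its partner cops6 differed in spread. For cops5.S the values were 5.81, 5.81 and 7.67 in sex-reversed testis, against 10.40, 3.43 and 7.08 in normal testis, a span of 6.97 log2 units or 125-fold within the 6 arrays. Both extremes were normal arrays, so its difference of -0.54 (95% interval -4.15 to 3.07) says little about the groups: leaving out normal replicate 1 gave 1.17 and leaving out normal replicate 2 gave -2.31. For cops6.S the values were 8.10, 8.71 and 9.29 in sex-reversed testis and 9.10, 8.92 and 9.24 in normal testis, and the difference of -0.38 was -0.08 without sex-reversed replicate 1.

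The scaffold gene cops7b.L took only high or low values. It read 2.58, 7.54 and 2.98 on sex-reversed replicates 1, 2 and 3, against 3.05, 2.97 and 7.62 on normal replicates 1, 2 and 3. In each group 1 array was thus far above the others, and the difference of -0.18 (95% interval -3.97 to 3.61) changed sign with the array left out (-1.77 to 1.35). The S copy, cops7b.S, had a mean level below the 25th percentile of levels and read 3.74, 3.56 and 3.76 in sex-reversed testis and 3.20, 3.66 and 4.23 in normal testis. A span of at least 4-fold over the 6 arrays was found for 7 of the 49 probe sets (14.3%; 8.18% of all probe sets), namely cops5.S, cops7b.L, psmc1.L with both probe sets, pomp.S, psmc5.S and psma2.L. Among probe sets above the median level the shares were close, with 4 of 39 members (10.3%) and 9.44% of all such probe sets. A span of at least 16-fold was found for 3, cops5.S, cops7b.L and the _at probe set of psmc1.L, where 0.853% of all probe sets were as wide. These widely varying genes were singled out after their values were seen.

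**Figure D3:**
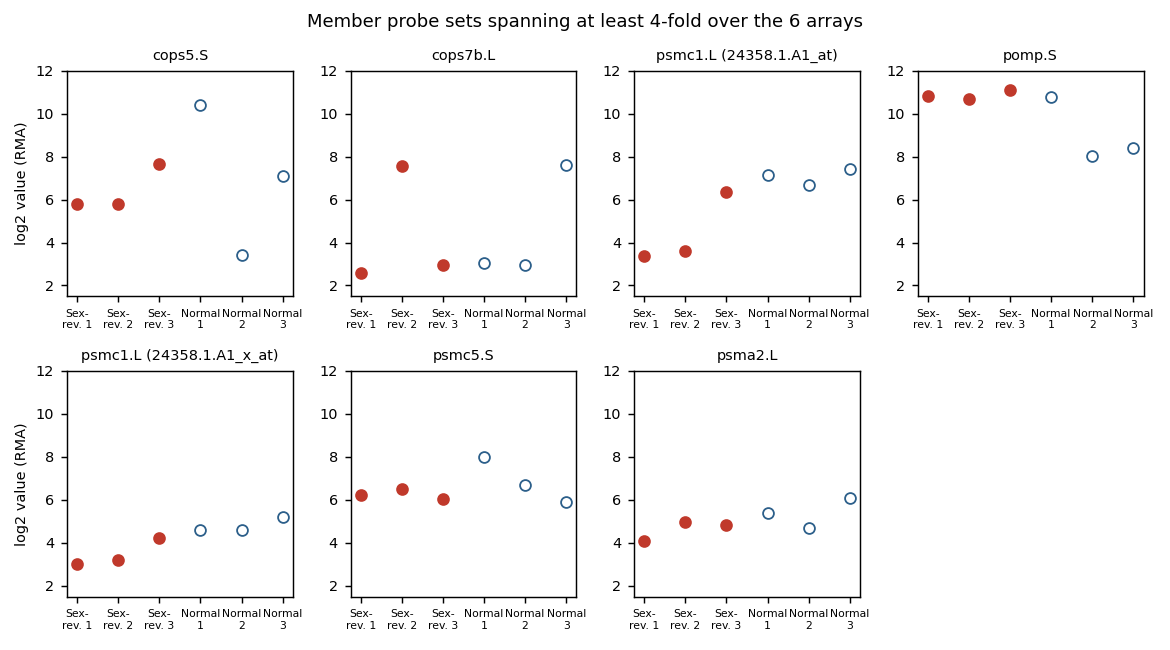
Log2 values on each array of the 7 member probe sets that span at least 4-fold over the 6 arrays, for sex-reversed (filled red) and normal (open blue) testis. In cops7b.L 1 array of each group is high, in pomp.S normal replicates 2 and 3 are low, and in psmc1.L sex-reversed replicates 1 and 2 are low.

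Probe sets of the same gene copy could be set against each other for 5 copies, in 7 pairs. Their differences between the groups had the same sign in 4 pairs and opposite signs in 3, with a median gap of 0.22 and a largest gap of 1.34, that of psmc1.L. The pairs of the same sign were those among the 3 probe sets of cops2.L, which are not independent of each other, and that of psmc1.L. The copies with opposite signs were psma5.S, psmd7.L and psmd8.L. The 3 probe sets of cops2.L, a scaffold subunit, all had their lowest value on sex-reversed replicate 1. The _at probe set read 5.83, 6.79 and 5.95 in sex-reversed testis, against 6.73, 6.40 and 7.0 in normal testis. The _s_at probe set read 3.56, 4.98 and 4.80 in sex-reversed testis, against 4.71, 5.03 and 4.92 in normal testis. The _x_at probe set read 6.12, 7.66 and 7.04 in sex-reversed testis, against 7.25, 7.49 and 6.98 in normal testis. Their differences were -0.52, -0.44 and -0.30, and -0.34, 0.00108 and 0.11 without sex-reversed replicate 1. Both psma5.S probe sets varied together over the arrays, with an SD of 0.18 for the gap between them, although one lay at 2.93 to 3.46 in sex-reversed and 2.85 to 3.68 in normal testis and the other at 7.47 to 8.12 and 7.54 to 8.22 in the same order. Differences between the groups were small and of opposite sign for these 2 psma5.S probe sets, at -0.08 for the low one and 0.07 for the high one. The pairs of psmd7.L, a partner of Rpn11 in the lid, and of the lid subunit psmd8.L had gaps with SDs of 0.39 and 0.34, and in each pair the differences had opposite signs. Means for psmd7.L were 7.33 ± 0.61 in sex-reversed and 7.21 ± 0.44 in normal testis by one probe set, and 5.65 ± 0.29 and 5.78 ± 0.10 in the same order by the other (SD, n = 3 each). For psmd8.L they were 9.39 ± 0.21 in sex-reversed and 9.18 ± 0.21 in normal testis by one probe set, and 8.71 ± 0.45 and 8.93 ± 0.46 in the same order by the other (SD, n = 3 each). Its S copy, psmd8.S, lay at 5.51 to 5.76 in sex-reversed and 5.59 to 6.06 in normal testis.

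**Figure D4:**
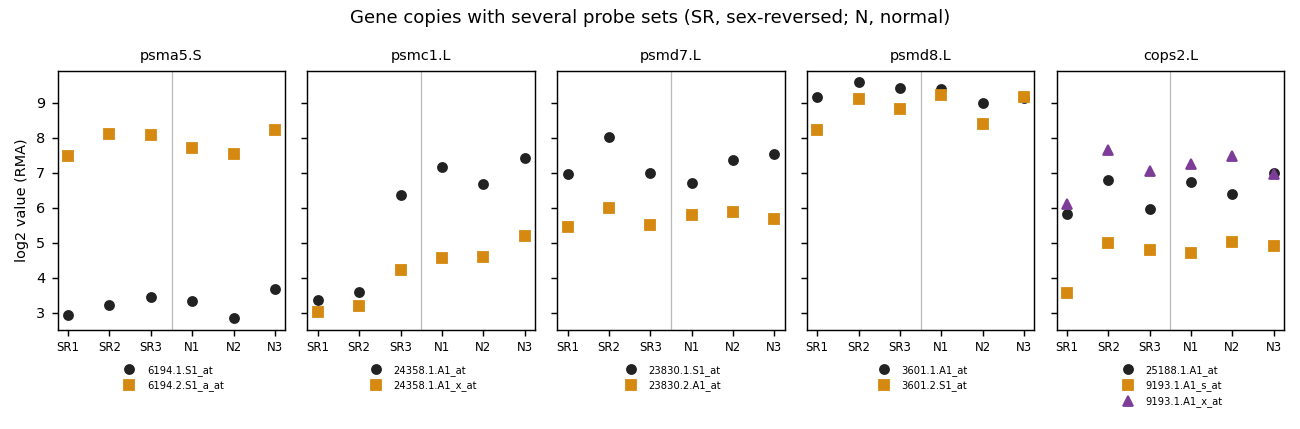
Log2 values on the sex-reversed (SR) and normal (N) arrays for the 5 gene copies with more than 1 probe set, with 1 marker shape per probe set. Both psmc1.L probe sets are lowest on sex-reversed replicates 1 and 2, and all 3 cops2.L probe sets are lowest on sex-reversed replicate 1.

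Between L and S copies, 5 of 7 pairs of probe sets over 6 genes had differences of the same sign, with a median gap of 0.24 and a largest gap of 0.52, that of psmd14. With 73.5% of all members lower, a shared sign says little about agreement of the copies. The gap between the levels of the copies had an SD over the arrays of 2.29 for cops7b and of 0.32 to 0.66 for the other pairs. For cops7b, counted as of the same sign, both differences changed sign with 1 array left out. The spread within groups of the members was a little above that of all probe sets, with a median SD of 0.43 against 0.34. For the 29 probe sets of the standard core, base and lid it was 0.25. The 95% interval of the difference stayed within 2-fold for 27 of the 49 members, 20 of them among these 29, and for 7181 of all 11485 probe sets. With any 1 array left out, the difference changed sign for 21 of the 49 and changed sign or moved over 1.5 times for 43. The same was not counted over all probe sets, so these counts do not set the members apart.

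Genes that work beside the proteasome were read from a list of 50 symbols, chosen with earlier results of these data known. Of the 50, 26 were measured by 34 probe sets. None passed the threshold, and 3 had an unadjusted p under 0.05, of which 1 was higher in sex-reversed testis (2.26% of all probe sets) and the other 2 were lower (2.16% of all probe sets). The mean was higher for 11 and lower for 23 (48.7% of all probe sets were lower), with a median difference of -0.16. The 3 were ube3c.S, a ubiquitin ligase that binds the proteasome in mammals, nfe2l2.L, a transcription factor of the oxidative stress response, and skp1.L, an adaptor of cullin ligases. One ube3c.S probe set read 7.05, 7.21 and 7.12 in sex-reversed testis, against 4.68, 4.65 and 4.17 in normal testis, a difference of 2.62 (95% interval 2.10 to 3.15; adjusted p = 0.0510 in limma, 0.0325 to 0.610 over 17 alternatives). A second ube3c.S probe set lay the other way, at 5.95, 5.74 and 6.71 in sex-reversed testis and 6.57, 6.38 and 6.64 in normal testis, a difference of -0.40 (95% interval -1.08 to 0.28). Which of them follows the RNA was not tested.

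The difference was -0.72 for nfe2l2.L (4.10 to 4.17 in sex-reversed and 4.51 to 5.18 in normal testis) and -0.75 for skp1.L (7.84 to 8.72 in sex-reversed and 8.91 to 9.18 in normal testis), and neither set of groups overlapped. Groups were also apart for adrm1.L, as lower, and for uba1.L and the first ube3c.S probe set, as higher. Over all probe sets, the groups were apart for 4.26% as lower and for 5.37% as higher. For cul2.L, a cullin, the difference was -0.60 (-0.38 without sex-reversed replicate 3). Subunits named outside the rule also had lower means. The ubiquitin receptor of the base, adrm1.L, read 9.02, 9.49 and 9.34 in sex-reversed testis, against 9.73, 9.78 and 9.57 in normal testis, a difference of -0.41 (95% interval -0.92 to 0.10). The COP9 subunit gps1.L read 5.72, 6.004 and 7.43 in sex-reversed testis, against 7.64, 7.12 and 6.57 in normal testis, a difference of -0.73 (95% interval -1.86 to 0.41; -0.39 without sex-reversed replicate 1 and -1.25 without sex-reversed replicate 3).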

How the data were processed

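Per the labels, total RNA was labelled with biotin and hybridised to Affymetrix arrays, 1 testis sample per array, 3 sex-reversed and 3 normal by title. Values are log2 expression made by the authors with RMA, per the submitters' processing notes; its version and options, and how rows were chosen, are not stated in the material used here. The log2 scale was read from their range, 1.93 to 14.42.

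Symbols came from the platform table: 6798 of 11485 probe sets had 1 symbol, 110 several and 4577 none there. The test was limma 3.58.1 in R 4.3.3 (lmFit and eBayes), two-sided, on sex-reversed minus normal per probe set, with Benjamini-Hochberg adjustment over all 11485. The fit was tested on simulated data. Members and lists were chosen with earlier results of these data known. Differences are given with alternatives for members with an unadjusted p under 0.05 or a log2 difference of at least 1, the largest difference per role, and their other probe sets and copies; psmc3.S, psmc5.S, psme3ip1.S, psme4.L, cops2.L, cops5.S, cops6.S, cops7b.L, cops7b.S and gps1.L were added after their values were seen. The number of arrays limits the precision. Neither labels nor table give a scan batch, so none was tested.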

Additional observations from a re-analysis of the deposited data

How the results depend on the processing

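The alternatives were other normalizations, filters, variance models and probe set choices, and each array left out. The count of calls over all probe sets, 0, became 2 with median-centred arrays, with array weights and at an adjusted p of 0.10 (added after seeing the data). It became 1 with a further quantile normalization, with the filter at the median level and without probe sets marked _s_at, _x_at or _a_at. With 1 array left out it was 0 to 6. Among members it was 0 to 1 with 1 array left out, the 1 being psmc1.L without sex-reversed replicate 3, and 0 in all other settings. The 5 members with an unadjusted p under 0.05 became 3 without moderation and 2 to 5 with 1 array left out (2 without sex-reversed replicate 1). The 3 members at least 2-fold apart became 3 to 6 with 1 array left out (6 without normal replicate 3). They became 2 with the filter at the median level and without the marked probe sets, and 4 with array weights. The median of members, -0.15, was -0.23 as a mean, -0.20 with the filter at the 25th percentile, and -0.11 without the members spanning over 4-fold (added after seeing the data). With the replicate number as a block, 6 members had an unadjusted p under 0.05 and 0 passed. Whether the numbers pair the samples is not stated. Same-numbered arrays had correlations of -0.007, -0.02 and 0.14 between their deviations from the group means. Sex-reversed replicates 1 and 2 did not correlate best with their own number, while sex-reversed replicate 3 did. With 3 arrays per group, these values cannot decide whether the samples were paired. The difference of psmd14.S, -0.01, was 0.00402 with a further quantile normalization. With 1 array left out, differences ran from -0.0884 to 0.13 for psmd14.S, from -0.71 to 0.00108 and -0.66 to 0.11 for cops2.L (its _s_at and _x_at probe sets), from -2.31 to 1.17 for cops5.S, from -1.77 to 1.35 for cops7b.L and from -0.26 to 0.26 for cops7b.S. Of 482 alternative values of named probe sets, 11 changed sign, 10 of them with 1 array left out. The replicate block, the trended, robust and unmoderated variances, the filters and the removal of the marked probe sets leave each difference as it is. Array weights do not, and moved cops5.S from -0.54 to -1.04. Signs could not change in the settings that leave the differences as they are. The share of 482 therefore does not measure how stable the signs are. The background correction could not be varied from these values.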
